A study of Mus musculus with 38 samples.

Results

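Tubulins and the proteins that regulate microtubules are described here in purified mouse oligodendrocyte precursor cells (OPCs), across 2 genotypes and 4 times of day. The group comprised 34 genes of the 54532 in the count table, chosen by gene name and family, with earlier results of these data known. It held 3 alpha tubulins, 6 beta tubulins, 4 MARK kinases, 5 structural microtubule-associated proteins (MAPs), 2 members of the TPPP family, 3 stathmins, 4 collapsin response mediator proteins (CRMPs) and 7 plus-end proteins. All 34 passed the filter on low counts, which left 22798 genes for testing.

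Microtubules are hollow polymers of alpha and beta tubulin that grow and shrink at their plus ends, carry cargo along cell processes and form the mitotic spindle. Structural MAPs bind along the wall of the polymer, MARK kinases phosphorylate MAPs and release them from it, stathmins sequester free tubulin, CRMPs bind tubulin in growing processes, and EB, CLIP and CLASP proteins act at the growing end. In the oligodendrocyte lineage the microtubule array is rebuilt when a dividing, process-bearing OPC matures into a cell that extends myelin sheaths, and TPPP is known there as a nucleator of microtubules at Golgi outposts.

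The cells came from the forebrain of mice at postnatal day 6 to 7, and every mouse carried the floxed allele Bmal1fl/fl, whose product BMAL1 is a core transcription factor of the circadian clock. Mice without Cre (NG2:Cre-) are called WT, and mice with Cre driven by the NG2 (Cspg4) promoter (NG2:Cre+) are called KO; no Cre-positive group with intact Bmal1 was among the samples. The mice lived under 12 h of light and 12 h of dark, received no drug, and gave cells at lights on (ZT0, zeitgeber time), ZT6, lights off (ZT12) and ZT18, with 2 mice pooled in each library. Cells were selected by plates that bind microglia and endothelial cells and then by an antibody to PDGFRA. WT had 4, 5, 6 and 4 libraries and KO had 4, 7, 4 and 4, in order of time.

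The libraries held 19.4 to 39.01 M counts (M, mega; median 25.9). By the percentage of counts assigned to rRNA genes, the libraries fell into 8 between 0.0848% and 0.263%, called low-rRNA below, and 30 between 0.409% and 1.34%. All 4 KO libraries at ZT18 were low-rRNA, as were replicates 4 to 6 of WT at ZT12 and replicate 7 of KO at ZT6, so that at ZT18 this split and the genotype cannot be told apart. RNA of a single sex was found in 13 libraries although the labels speak of both sexes. At ZT12 these were 4 of 6 WT and 0 of 4 KO libraries, so that there sex make-up and genotype overlap in part. At ZT18 they were 2 of 4 WT and 1 of 4 KO libraries. At ZT0 they were 1 of 4 in each genotype, and at ZT6 1 of 5 in WT and 3 of 7 in KO. Arntl, the mouse gene for BMAL1, was counted at 19.3 to 33.2 CPM (counts scaled to the same library total of 1 M) in WT and 17.7 to 23.4 CPM in KO (log2 fold change -0.17, adjusted p = 0.183 by edgeR). The counts are per gene and not per exon, so they do not tell whether the floxed segment was lost and do not check the genotype labels. Why Arntl was not called lower in KO was not tested. The OPC markers Pdgfra and Cspg4 had medians of 4065 and 929 CPM, against 79.2 CPM for Mbp of mature oligodendrocytes, while P2ry12 of microglia had 815 CPM, so RNA of microglia was present as well.

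Several tubulin genes are close copies, which bears on how their counts are read. The last 60 coding bases, stop codon included, are shown for Tubb2a and Tubb2b because they encode the acidic tail that MAPs, motors and modifying enzymes bind, and because they show how little separates the copies for a short read. Bases in capitals differ from Tubb2a, and the sequences are from the GENCODE annotation on GRCm38, with Tubb2a at chr13:34074468-34074527 (- strand) and Tubb2b at chr13:34127471-34127530 (- strand).
Tubb2a: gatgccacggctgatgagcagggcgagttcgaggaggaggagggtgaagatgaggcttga
Tubb2b: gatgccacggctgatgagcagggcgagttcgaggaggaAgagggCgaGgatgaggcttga

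Tubb2b differed from Tubb2a by 3 bases in this stretch. Over the whole coding sequence Tuba1a and Tuba1b were 98.3% identical, and Tubb2a and Tubb2b 96.5%. Of all windows of 100 bases in their transcripts, 65.85% for Tuba1a, 65.2% for Tuba1b, 46.0% for Tuba1c, 36.9% for Tubb2a, 26.0% for Tubb2b and 22.0% for Tubb4b also occurred in another gene. The split of reads among these 6 genes therefore depends on how shared reads were counted, which is not given in the sources used here, and their single values are uncertain to that extent. Stmn1 shared 12.8% of its windows, Clip2 4.13%, Map1a 1.42% and Map4 0.36%, and the other 24 genes, Tubb5, Tubb4a and Tubb6 among them, shared none.

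Per kilobase of gene length, Tuba1a was the most abundant transcript of the group at 659 CPM per kilobase, and Tubb5, a beta tubulin of dividing and growing cells, followed at 303. Of the summed signal of the 3 alpha tubulins in the group on that scale, Tuba1a made up 72.4% ± 4.28 (SD, n = 38 libraries), Tuba1b 23.9% ± 3.47 and Tuba1c 3.70% ± 1.06. Among the 6 beta tubulins in the group Tubb5 made up 37.7% ± 2.26, Tubb2b 30.4% ± 2.68 and Tubb6 1.64% ± 0.892. Tubulins outside the group, such as Tuba4a and Tubb3 (median 139 CPM), were not in these sums. Of the regulators Dpysl3, a CRMP, stood highest at 114 CPM per kilobase, with the stathmins Stmn3 at 104 and Stmn1 at 103. The 4 MARK kinases lay close together between 13.2 and 16.8 CPM per kilobase, and Tppp3 was the lowest member at 2.41, with 26 to 258 counts per library. Spread over the libraries was least for Mark3, with a coefficient of variation of 5.21%, and largest for Tubb6, at 45.3%.

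Comparing KO with WT at each hour asks whether these genes differ between Cre-positive and Cre-negative Bmal1fl/fl mice at a given time of day. Most members were slightly higher in KO at ZT0, ZT6 and ZT18 and slightly lower at ZT12. A call here means an adjusted p below 0.05 in the quasi-likelihood test of edgeR, adjusted by Benjamini-Hochberg over all 22798 genes. At ZT12, 27 of 34 members had negative log2 fold changes with a median of -0.15 (all genes: -0.0076), and 4 fell: Tubb6, Mark2, Mark4 and Map7d1, where 5% of all genes were called, 1.31% higher and 3.69% lower. At ZT18, 29 of 34 were positive with a median of 0.29 (all genes: -0.0036), and 5 rose: Tubb6, Mark4, Map4, Map7d1 and Dpysl2, where 2.14% of all genes were called, 1.39% higher and 0.746% lower. In all, 25 of 34 were negative at ZT12 and positive at ZT18, and 3 of them, Tubb6, Mark4 and Map7d1, were called at both. Of all 22798 genes, 11603 were negative at ZT12 and 11302 positive at ZT18. The share of all genes with both signs, or called at both times, was not counted. Of 25 other tubulins and family members measured, which were listed apart from the members, 15 were negative at ZT12 (median -0.13) and 14 positive at ZT18 (median 0.13). The members were chosen with earlier results known, so their sign counts are a description only. Under other settings members were also called against these directions: Mapre1 higher at ZT12 by DESeq2 (0.24) and with library size alone (0.26), and Clasp2 by DESeq2 higher at ZT12 (0.24) and lower at ZT18 (-0.27). By family at ZT12, all 6 beta tubulins (median -0.19), all 5 structural MAPs (-0.26) and all 3 stathmins (-0.28) were negative, against 3 of 7 plus-end proteins. At ZT18 the 6 beta tubulins (median 0.32), 5 MAPs (0.37) and 4 CRMPs (0.40) were all positive. The p-values measure the spread between these libraries, and in bulk samples, fewer cells of a type and less RNA per cell cannot be told apart.

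The genotype difference depended on time for 11 members (interaction test with 3 degrees of freedom), where 9.19% of all genes were called. They were the tubulins Tubb2a, Tubb4a and Tubb6, the kinases Mark2 and Mark4, the MAP Map7d1, the stathmins Stmn1 and Stmn3, the CRMP Dpysl2 and the plus-end proteins Clip2 and Clasp2. Without the 13 single-sex libraries 5 were called for the interaction (Tubb6, Mark4, Map7d1, Stmn1 and Clasp2), 3 at ZT12 (Tubb6, Mark4 and Map7d1) and 0 at ZT18, where that fit called 3.05%, 3% and 0.00422% of all genes. Without the 8 low-rRNA libraries, which removes ZT18 in KO, 0 members were called for the interaction and 0 at ZT12, and of all 22965 genes then tested 0 and 1 were called. With the split as a term 1 (Mark4), 2 (Mark4 and Map7d1) and 0 members were called for the interaction, at ZT12 and at ZT18, and 0.189%, 0.342% and 0.00877% of all genes. In these fits fewer calls were made over all genes as well. The interaction count fell to 4 without KO ZT12 replicate 1 and to 7 without KO ZT12 replicate 3, and the ZT12 count to 2 without either. The ZT18 count was 0 without WT ZT18 replicate 3 or 4 or KO ZT18 replicate 4, and 1 without any other ZT18 library.

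**Figure D1:**
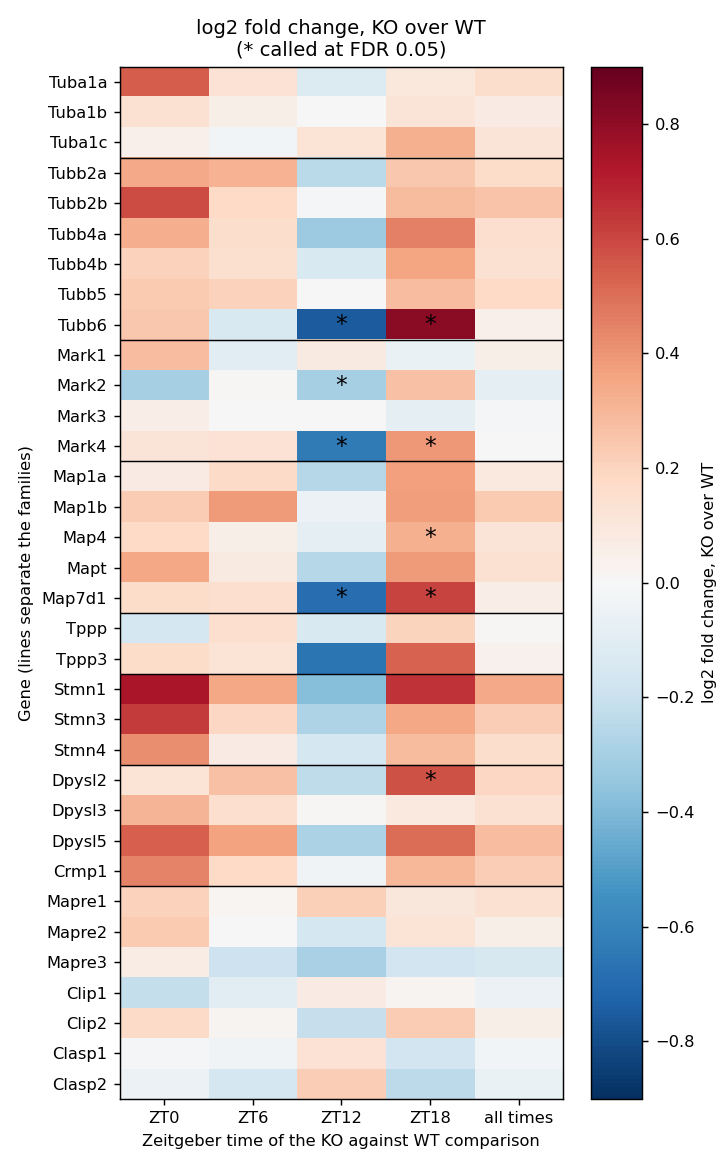
Colour map of the log2 fold change of KO over WT for each gene (rows, in families separated by lines) at each time and over all times (columns), with called genes starred. The stars stand at ZT12 (4 genes, lower in KO) and ZT18 (5 genes, higher in KO), with none at ZT0, at ZT6 or over all times.

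Averaged over the 4 times, 28 of 34 members were positive (median 0.115 against -0.018 over all genes), 0 were called where 0.0921% of all genes were (0.0658% higher and 0.0263% lower), 14 had an unadjusted p below 0.05 (3444 of all genes), and DESeq2 called 1 (1.07% of all genes). The largest values were 0.34 for Stmn1 (SE 0.0894, adjusted p = 0.102) and 0.26 for Tubb2b (SE 0.0776, adjusted p = 0.126). At ZT6, 25 of 34 were positive (median 0.12), 0 were called where 0.0132% of all genes were (0.00877% higher and 0.00439% lower), 4 had an unadjusted p below 0.05 (1000 of all genes), and DESeq2 called 0 (0.0132% of all genes). At ZT0, 29 of 34 were positive (median 0.21), and 0 were called where 0.285% of all genes were (0.184% higher and 0.101% lower). There 15 had an unadjusted p below 0.05 (4191 of all genes), and DESeq2 called 5, of which 1 was lower (4.47% of all genes).

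A single WT library decided the count at ZT0. In WT ZT0 replicate 4 the level of Stmn1 was 228 CPM against 123, 145 and 135 CPM in the other WT libraries, and the level of Crmp1 was 239.5 CPM against 134, 164 and 136 CPM. As it was the highest WT library there for these genes, leaving it out raises their values of KO over WT. Its summed neuron markers, which include the microtubule genes Map2, Dcx, Tubb3 and Stmn2, were 2538 CPM against 1892, 2206 and 1635. Its summed microglia markers were 7326 CPM against 6994, 13990 and 17049. The part of these cells was not tested. Without that library 15 members were called at ZT0, where 9.37% of all genes then were. Of these, 14 were higher in KO: the tubulins Tuba1a, Tubb2a, Tubb2b (0.85) and Tubb4a, the kinase Mark1, the MAPs Map4 and Mapt, all 3 stathmins (Stmn1 0.96, Stmn3 0.80), the CRMPs Dpysl3 and Crmp1, and the EB proteins Mapre1 and Mapre2, while Mark2 was lower (-0.35). In that fit the median at ZT0 was 0.29 over members and -0.073 over all genes, and the directions of call over all genes were not counted. Over all times 5 members (Tubb2b, Map4, Stmn1, Stmn3 and Mapre1) were then called, all higher, where 2.69% of all genes were called in either direction. Removal of 1 other library gave at most 3 calls at ZT0 (2 higher and 1 lower without KO ZT0 replicate 4 or KO ZT6 replicate 3, and 1 higher without WT ZT12 replicate 1 or 3, WT ZT18 replicate 4 or KO ZT6 replicate 1), and 1 over all times without KO ZT6 replicate 1.

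**Figure D2:**
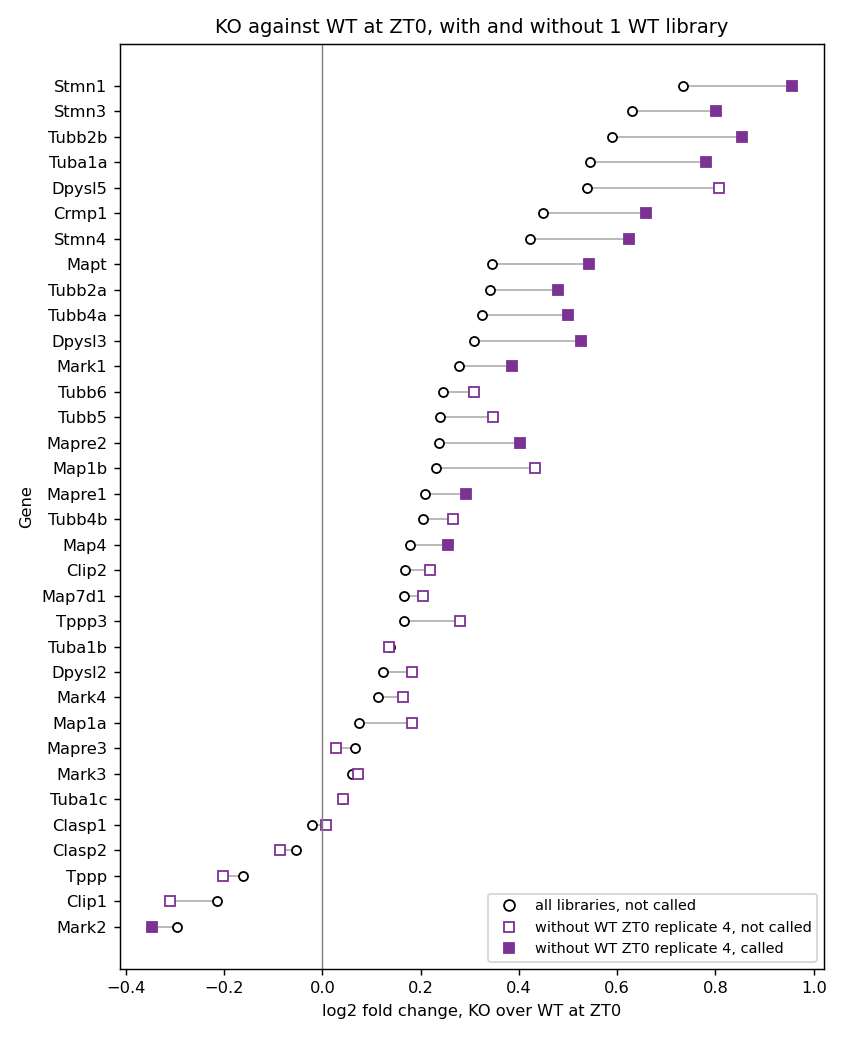
Log2 fold change of KO over WT at ZT0 for each gene with all libraries (circles) and without WT ZT0 replicate 4 (squares), with filled symbols where the gene was called. No circle is filled and 15 squares are, 14 of them on the positive side.

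Most neuron markers had the same sign as most members at each of the 4 times. Of 24 neuron markers, 21 were positive at ZT0 (median 0.22, 0 called) and 16 at ZT6 (median 0.10, 0 called). At ZT12 15 were negative (median -0.19, 0 called), and at ZT18 22 were positive (median 0.32, 1 called). Of the 24, 4 (Tubb3, Map2, Stmn2 and Dcx) are microtubule genes themselves. Their medians over the libraries were 139, 660, 66.9 and 396 CPM, and Map2 and Dcx were the largest parts of the sum. The sum therefore follows these microtubule genes to a large extent and is not a measure of neurons alone. The summed level of the 24 markers per library ranged from 1635 to 2538 CPM in WT and 2076 to 2858 in KO at ZT0, from 1770 to 2771 and 2031 to 2539 at ZT12, and from 1658 to 2651 and 2085 to 2372 at ZT18. Its medians in WT and KO were 2049 and 2503 CPM at ZT0 and 1951 and 2228 at ZT18. They were 1747 and 1731 CPM at ZT6 and 1993 and 2146 at ZT12, where the sum went against the sign of most markers. At ZT12, 14 of 20 OPC markers were negative (median -0.29) and 4 were called lower (C1ql1, Bcan, Neu4 and Cspg4), with summed levels of 16949 to 22044 CPM in KO and 19941 to 24484 in WT. In the same comparison 11 of 15 oligodendrocyte markers (median -0.29, 1 called) and 11 of 16 endothelial and mural markers (median -0.43, 0 called) were negative. At ZT18, all 9 red blood cell markers (median 0.86, 1 called), 15 of 16 endothelial and mural markers (median 0.79, 0 called), 13 of 15 oligodendrocyte markers (median 0.57, 4 called) and all 20 microglia markers (median 0.35, 0 called) were positive in KO. The summed oligodendrocyte markers there were 839 to 1058 CPM against 624.6 to 704 in WT, and the summed red blood cell markers 4805 to 7982 CPM against 3230 to 3658. At ZT0, all 12 choroid plexus and ependymal markers were positive (median 0.55, 0 called) and all 20 microglia markers negative (median -0.46, 0 called). The part of these cell types in the members' differences was not tested.

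Tubb6 (ENSMUSG00000001473, chromosome 18), a divergent beta tubulin outside the neuronal set, had the largest ratio of highest to lowest group mean of the 34 members in WT (2.69) and in KO (2.47). In WT it stood at 11.8, 13.5, 12.3 and 15.02 CPM at ZT0 and at 29.1, 46.7, 36.2, 34.9 and 29.6 CPM at ZT6. At ZT12 it lay between 14.8 and 30.9 (median 19.5) CPM, and at ZT18 at 15.4, 13.9, 12.6 and 10.6 CPM. The ZT6 range lay above those of ZT0 and ZT18 and overlapped only that of ZT12. From ZT6 to ZT18 it fell by 1.43 on the log2 scale (2.69-fold, SE 0.219, adjusted p = 2.82e-05). The 3-degree-of-freedom test over the 4 times in WT gave an adjusted p of 8.15e-06, and both calls held in all 38 fits that left out 1 library. With the low-rRNA libraries removed they had adjusted p of 7.45e-06 and 1.3e-06.

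In KO the level of Tubb6 also varied with time (adjusted p = 7.78e-05), with 11, 14.1, 17.2 and 20.2 CPM at ZT0 and values between 20.4 and 44.7 (median 31.9) CPM at ZT6. At ZT12 it stood at 10.3, 13.5, 13.4 and 14.9 CPM, and at ZT18, in low-rRNA libraries only, at 18.7, 21.1, 21.3 and 31.0 CPM. The high values at ZT6 were thus seen in both genotypes, and the difference between genotypes there was -0.13 (SE 0.183, adjusted p = 0.974). From ZT6 to ZT18 the change in KO was -0.48 (SE 0.199, adjusted p = 0.159). The time call in KO held in all 38 leave-one-out fits and, over ZT0 to ZT12, without the low-rRNA libraries (adjusted p = 1.09e-05). In WT, summed OPC, microglia and choroid plexus markers also had their highest median at ZT6 (22889, 12727 and 470.3 CPM). Each had a range that overlapped those of the other times. The choroid plexus sum was mostly Enpp2 (median 383 CPM over the libraries). Gene by gene, 11 of the 12 choroid plexus and ependymal markers were higher at ZT18 than at ZT6 in WT (median 0.71). The part of these markers' cells was not tested.

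Between genotypes, Tubb6 was lower in KO at ZT12 (log2 fold change -0.75, SE 0.209, adjusted p = 0.0309) and higher at ZT18 (0.81, SE 0.225, adjusted p = 0.0468), with an interaction adjusted p of 0.00568. At ZT12 the 3 low-rRNA WT libraries were the highest, at 30.4, 21.6 and 30.9 CPM, whereas the other 3, at 14.8, 17.4 and 16.0 CPM, overlapped the KO range. Without the low-rRNA libraries the ZT12 value was -0.30 (adjusted p = 0.679). That call was also lost without WT ZT12 replicate 4, 5 or 6 or KO ZT12 replicate 1 or 3 (adjusted p up to 0.144). The ZT18 call was lost in 19 of 38 leave-one-out fits, each of the 8 ZT18 libraries among them (adjusted p up to 0.206).

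**Figure D3:**
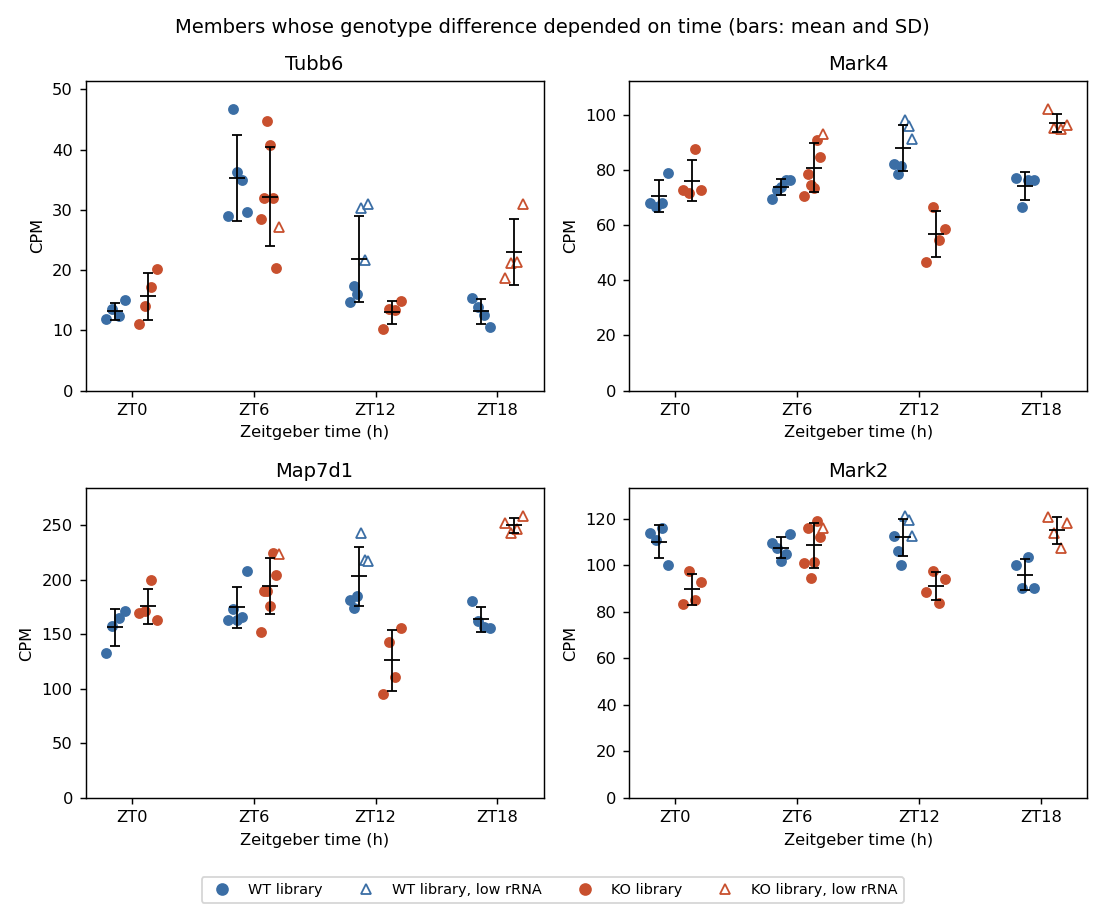
CPM of Tubb6, Mark4, Map7d1 and Mark2 in each library by zeitgeber time, with WT in blue, KO in red, open triangles for low-rRNA libraries, and bars for the mean and SD of each group. Tubb6 is highest at ZT6 in both genotypes, and for Mark4 the 4 KO libraries at ZT12 lie at or below 66.7 CPM while the WT libraries there lie at or above 78.4.

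Of the other beta tubulins, Tubb2a (ENSMUSG00000058672, chromosome 13, 34074274 to 34078007, - strand), which is common in neurons and glia, rose from ZT6 to ZT18 in both genotypes. In WT it stood at 135, 125, 145, 139.6 and 133 CPM at ZT6 and 180.5, 175, 203 and 231 CPM at ZT18, which is a change of 0.54 (SE 0.122, adjusted p = 0.00419). In KO it lay between 138 and 195 (median 172) CPM at ZT6 and at 234, 221, 249.6 and 229 CPM at ZT18, a change of 0.48 (SE 0.113, adjusted p = 0.00978). All ZT18 libraries stood above all ZT6 libraries of their genotype. At ZT0 it was 144, 195, 158 and 237 CPM in WT and 229, 229, 252 and 219 CPM in KO, and at ZT12 it lay between 180.2 and 260.4 (median 197) CPM in WT and at 164, 189.9, 144 and 196 CPM in KO. Its time calls (adjusted p = 0.00224 in WT and 0.00201 in KO) held in all 38 leave-one-out fits, while its interaction call (adjusted p = 0.0456) was lost in 27 of them (adjusted p up to 0.155) and with the low-rRNA split as a term (adjusted p = 0.239). The rise in KO had an adjusted p of 0.193 with that term.

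Tubb4a (ENSMUSG00000062591, chromosome 17, 57080066 to 57087782, - strand), the beta tubulin known from myelinating oligodendrocytes, varied with time in KO (adjusted p = 0.00358) and rose there by 0.48 from ZT6 to ZT18 (SE 0.118, adjusted p = 0.0128). In KO it stood at 167, 145, 159 and 139.5 CPM at ZT0, between 104 and 149 (median 125) CPM at ZT6, and at 111, 115, 108 and 129 and 189, 152, 181 and 171 CPM at ZT12 and ZT18. In WT it stood at 98.9, 121, 102 and 165 CPM at ZT0 and 110.2, 90.4, 106, 119 and 129 CPM at ZT6. At ZT12 in WT it lay between 114 and 169 (median 147) CPM and at ZT18 at 98.5, 135, 123 and 148 CPM. The KO libraries at ZT18 lay above every WT library there, with a log2 fold change of 0.46 that did not pass (SE 0.136, adjusted p = 0.06). Its interaction call (adjusted p = 0.0158) was lost without KO ZT12 replicate 1 (adjusted p = 0.0562) and with the low-rRNA split as a term (adjusted p = 0.269), and its ZT18 rise in KO without KO ZT18 replicate 1 (adjusted p = 0.0692) and with that term (adjusted p = 0.278).

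Among the remaining tubulins, Tuba1c, a minor alpha tubulin, fell by 0.63 from ZT6 to ZT18 in WT (SE 0.18, adjusted p = 0.0313), a call that was lost without WT ZT6 replicate 2, 3 or 5 or any of the 4 WT ZT18 libraries (adjusted p up to 0.156). Tuba1a (adjusted p = 0.0341) and Tubb2b (adjusted p = 0.0194) varied with time in KO. The Tuba1a call was lost without KO ZT0 replicate 1 or 3, KO ZT6 replicate 2, KO ZT12 replicate 1 or 3 or KO ZT18 replicate 4, and the Tubb2b call without KO ZT0 replicate 3 or KO ZT6 replicate 2 (adjusted p up to 0.175 and 0.0589). Tuba1b, Tubb4b and Tubb5 passed in none of the 12 comparisons. All 9 tubulins had positive fold changes in KO at ZT0, from 0.04 for Tuba1c to 0.59 for Tubb2b, and none was called there.

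The MARK kinases, named for their activity on MAPs, split by member. Mark4 (ENSMUSG00000030397, chromosome 7, 19424775 to 19458821, - strand), a centrosomal and microtubule-bound kinase, had the smallest interaction p of all members (adjusted p = 0.00015). At ZT12 it lay between 78.4 and 98.1 (median 86.7) CPM in WT and at 46.6, 66.7, 54.7 and 58.6 CPM in KO, so that the ranges did not overlap. The log2 fold change there was -0.63 (1.55-fold lower, SE 0.091, adjusted p = 0.000241). At ZT18 the order was the opposite, with 77.2, 66.5, 76.5 and 76.3 CPM in WT and 102, 95.2, 94.7 and 96.3 CPM in the low-rRNA KO libraries (0.39, SE 0.0977, adjusted p = 0.0311). At ZT0 it was 68.0, 66.7, 67.9 and 79.0 CPM in WT and 72.7, 71.5, 87.5 and 72.8 CPM in KO. At ZT6 it was 69.5, 72.6, 73.7, 76.4 and 76.3 CPM in WT and between 70.5 and 93.1 (median 78.5) CPM in KO. The groups overlapped at ZT0 and at ZT6.

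The ZT12 call of Mark4 held in all 38 leave-one-out fits (log2 fold change -0.72 to -0.54). The 3 WT libraries there that were not low in rRNA, at 82.3, 78.4 and 81.5 CPM, also lay above every KO library, with -0.51 and an adjusted p of 0.0733 when the low-rRNA libraries were removed and 0.0142 with the split as a term. Within KO, Mark4 fell by 0.43 from ZT0 to ZT12 (SE 0.0983, adjusted p = 0.015), without a low-rRNA library in either group, a call lost without KO ZT0 replicate 3 or KO ZT12 replicate 1 or 3 (adjusted p up to 0.139). The ZT18 call was lost without any of the 8 ZT18 libraries (adjusted p up to 0.0975) and with the split as a term (adjusted p = 0.911).

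Mark2 (ENSMUSG00000024969, chromosome 19, 7275396 to 7341860, - strand), which acts in cell polarity, was lower in KO at ZT12 by a smaller step (-0.30, SE 0.074, adjusted p = 0.0153). It lay between 99.9 and 121 (median 112) CPM in WT and at 88.4, 97.6, 83.9 and 94.0 CPM in KO, with no overlap. At ZT0 it was 114, 111, 116 and 99.9 CPM in WT and 83.3, 97.7, 85.1 and 92.6 CPM in KO, also without overlap, and the difference of -0.30 did not pass (SE 0.0806, adjusted p = 0.0621). At ZT6 it was 109.6, 107, 102, 105 and 114 CPM in WT and between 94.3 and 119 (median 112) CPM in KO, and at ZT18 99.97, 90.0, 103 and 90.3 CPM in WT and 120.5, 114, 108 and 118 CPM in KO. Its interaction call (adjusted p = 0.00167) and its time call in KO (adjusted p = 0.0013) held in all 38 leave-one-out fits. The interaction call was lost on removal of the low-rRNA libraries (adjusted p = 0.362), and the ZT12 call without KO ZT12 replicate 1 or 3 (adjusted p up to 0.0957) or without the low-rRNA libraries (-0.22, adjusted p = 0.409).

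Mark1 (ENSMUSG00000026620, chromosome 1, 184896789 to 184999570, - strand) varied with time in KO (adjusted p = 0.00988), was not called for time in WT, and was not called for the interaction that compares them. It stood at 90.9, 85.2, 93.9 and 79.7 CPM at ZT0 and between 58.6 and 75.0 (median 62.2) CPM at ZT6 in KO. At ZT12 it stood at 77.7, 72.4, 70.5 and 94.8 and at ZT18 at 74.5, 64.8, 73.7 and 63.7 CPM. In WT it was 80.6, 58.3, 60.7 and 88.6 CPM at ZT0, 75.4, 67.5, 65.2, 76.2 and 66.3 CPM at ZT6, between 67.6 and 82.2 (median 74.0) CPM at ZT12 and 66.1, 65.2, 71.3 and 85.6 CPM at ZT18. The KO libraries at ZT0 lay above all those at ZT6 and ZT18, whereas the WT groups overlapped. Mark3 passed in none of the 12 comparisons, with genotype differences between -0.09 and 0.06.

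Of the structural MAPs, Map7d1 (ENSMUSG00000028849, chromosome 4, 126232167 to 126256343, - strand), a relative of MAP7 that helps kinesin to engage microtubules, was called at the same times and with the same signs as Mark4. At ZT12 it lay between 174 and 243 (median 201) CPM in WT and at 95.3, 143, 111 and 156 CPM in KO, and at ZT18 at 180.1, 162, 157 and 156 CPM in WT and 252, 242, 246 and 258 CPM in KO. The ranges did not overlap at either time, and KO was the lower group at ZT12 and the higher at ZT18. The log2 fold change was -0.69 at ZT12 (1.61-fold lower, SE 0.117, adjusted p = 0.000892) and 0.61 at ZT18 (1.53-fold higher, SE 0.126, adjusted p = 0.0126), with an interaction adjusted p of 0.000198. Its level at ZT0 was 132, 157, 165 and 171 CPM in WT and 169, 171, 199 and 163 CPM in KO, and at ZT6 163, 173, 163, 166 and 208 CPM in WT and between 152 and 224 (median 189.5) CPM in KO. These groups overlapped.

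The ZT12 call of Map7d1 held in all 38 leave-one-out fits and with the low-rRNA split as a term (-0.53, adjusted p = 0.0357), and was lost without the low-rRNA libraries (-0.51, adjusted p = 0.173), where the 3 remaining WT libraries, at 181, 174 and 185 CPM, still lay above every KO library. The ZT18 call was lost without WT ZT18 replicate 3 or 4 or KO ZT18 replicate 4 (adjusted p up to 0.0534), and with the term it stood at 0.31 (adjusted p = 0.78). Within KO the level fell by 0.48 from ZT0 to ZT12 (SE 0.126, adjusted p = 0.0282), which 5 of 38 leave-one-out fits lost, those without KO ZT0 replicate 1, 2 or 3 or KO ZT12 replicate 1 or 3 (adjusted p up to 0.183). It rose by 0.36 from ZT6 to ZT18 (SE 0.11, adjusted p = 0.0447), a call lost in 11 leave-one-out fits (adjusted p up to 0.124).

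Map4 (ENSMUSG00000032479, chromosome 9, 109931460 to 110083955, + strand), the main MAP of non-neuronal cells, was higher in KO at ZT18 (0.32, SE 0.0829, adjusted p = 0.0365), at 224, 205, 211 and 219.9 CPM in WT and 282, 265, 264 and 259 CPM in KO. The ranges did not overlap there. Its ZT0 values were 209.6, 211, 193 and 254 CPM in WT and 259, 222, 253 and 248 CPM in KO, at ZT6 199.5, 202, 204, 212 and 212 CPM in WT and between 184 and 237 (median 216) CPM in KO, and at ZT12 between 215 and 253 (median 231) CPM in WT and 197, 219.6, 229 and 225 CPM in KO. From ZT6 to ZT18 it rose by 0.33 in KO (SE 0.0727, adjusted p = 0.00567). The difference at ZT18 was lost without any of the 8 ZT18 libraries (adjusted p up to 0.118) and with the low-rRNA term (0.25, adjusted p = 0.708), and the rise in KO with that term (adjusted p = 0.196).

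Mapt (ENSMUSG00000018411, chromosome 11, 104231390 to 104332090, + strand), which encodes tau, varied with time in KO (adjusted p = 0.0125) and passed in no comparison between genotypes. In KO it stood at 275, 199, 256 and 233 CPM at ZT0, between 136 and 208 (median 172) CPM at ZT6, at 167, 162, 149.7 and 218 CPM at ZT12 and at 269, 219, 246 and 221 CPM at ZT18, where every library lay above every KO library at ZT12 or ZT6. In WT it stood at 185, 168, 139.5 and 264 CPM at ZT0 and 179, 148, 143, 186 and 168 CPM at ZT6, then between 173 and 279.8 (median 197) CPM at ZT12 and at 149, 163, 186 and 234 CPM at ZT18. WT ZT0 replicate 4 and WT ZT12 replicate 3 were the highest of their groups. Map1a rose by 0.45 from ZT6 to ZT18 in KO (SE 0.125, adjusted p = 0.0301), a call lost without KO ZT6 replicate 1 or 2 or KO ZT18 replicate 1 or 3 (adjusted p up to 0.227). Map1b, the early MAP of growing processes, passed in none, with genotype differences of -0.05 to 0.38. Of the TPPP family, Tppp passed in none, and Tppp3 varied with time in KO (adjusted p = 0.0334), a call lost without KO ZT12 replicate 1 or 3 or KO ZT18 replicate 1, 3 or 4 (adjusted p up to 0.096).

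The 3 stathmins all varied with time in KO, and 2 of them depended on genotype and time. Stmn1 (ENSMUSG00000028832, chromosome 4, 134468320 to 134473843, + strand), which is abundant in dividing and immature cells, stood at 221, 241, 368 and 220.0 CPM at ZT0 in KO and between 99.3 and 216 (median 176) CPM at ZT6. It then stood at 144, 174, 130.5 and 223 CPM at ZT12 and 282, 289, 297 and 311 CPM at ZT18. In KO it was thus high at ZT0 and ZT18, and every ZT18 library lay above every library at ZT6 and ZT12. In WT it stood at 123, 145, 135 and 228 CPM at ZT0 and 113, 142, 141, 139 and 146 CPM at ZT6, between 191 and 265 (median 214) CPM at ZT12 and at 184, 185, 163 and 218 CPM at ZT18. In WT every library at ZT12 and ZT18 lay above every ZT6 library.

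Stmn1 rose by 0.77 from ZT6 to ZT18 in KO (1.70-fold, SE 0.166, adjusted p = 0.00498) and varied with time in both genotypes (adjusted p = 0.0341 in WT and 0.00119 in KO). Its interaction adjusted p was 0.0109, lost without KO ZT12 replicate 1 (0.0516) and with the low-rRNA term (0.159). The KO difference was 0.73 at ZT0 (SE 0.191, adjusted p = 0.0575) and 0.65 at ZT18 (SE 0.191, adjusted p = 0.0565), neither of which passed. The WT time call was lost without any of the 5 WT ZT6 libraries or WT ZT12 replicate 3, 5 or 6 (adjusted p up to 0.101) and on removal of the low-rRNA libraries (adjusted p = 0.207), and the rise in KO with the low-rRNA term (adjusted p = 0.158).

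Stmn3 (ENSMUSG00000027581, chromosome 2, 181306459 to 181314500, - strand), a neural stathmin anchored to Golgi membranes, fell by 0.74 from ZT0 to ZT12 in KO (1.67-fold, SE 0.153, adjusted p = 0.00839). It stood at 179, 133, 216 and 138 CPM at ZT0 and 93.2, 100.3, 88.7 and 117 CPM at ZT12, without overlap. At ZT6 it was between 91.0 and 133 (median 110.0) CPM in KO, and at ZT18 153, 127, 156 and 136 CPM. In WT it was 88.1, 103, 93.9 and 145 CPM at ZT0, 93.1, 88.1, 95.5, 111 and 99.5 CPM at ZT6, between 92.5 and 156 (median 119) CPM at ZT12 and 96.7, 107, 108 and 138 CPM at ZT18, and these groups overlapped. The fall in KO involved no low-rRNA library and was lost without KO ZT0 replicate 3 or KO ZT12 replicate 1 or 3 (adjusted p up to 0.107); 22 of 24 neuron markers were negative in that comparison as well (median -0.44, 2 called). Its interaction call (adjusted p = 0.0187) was lost without KO ZT12 replicate 1 or 3 (adjusted p up to 0.0633) and with the low-rRNA term (0.136). Stmn4 passed only for time in KO (adjusted p = 0.0397), a call lost in 13 of 38 leave-one-out fits (adjusted p up to 0.132).

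**Figure D4:**
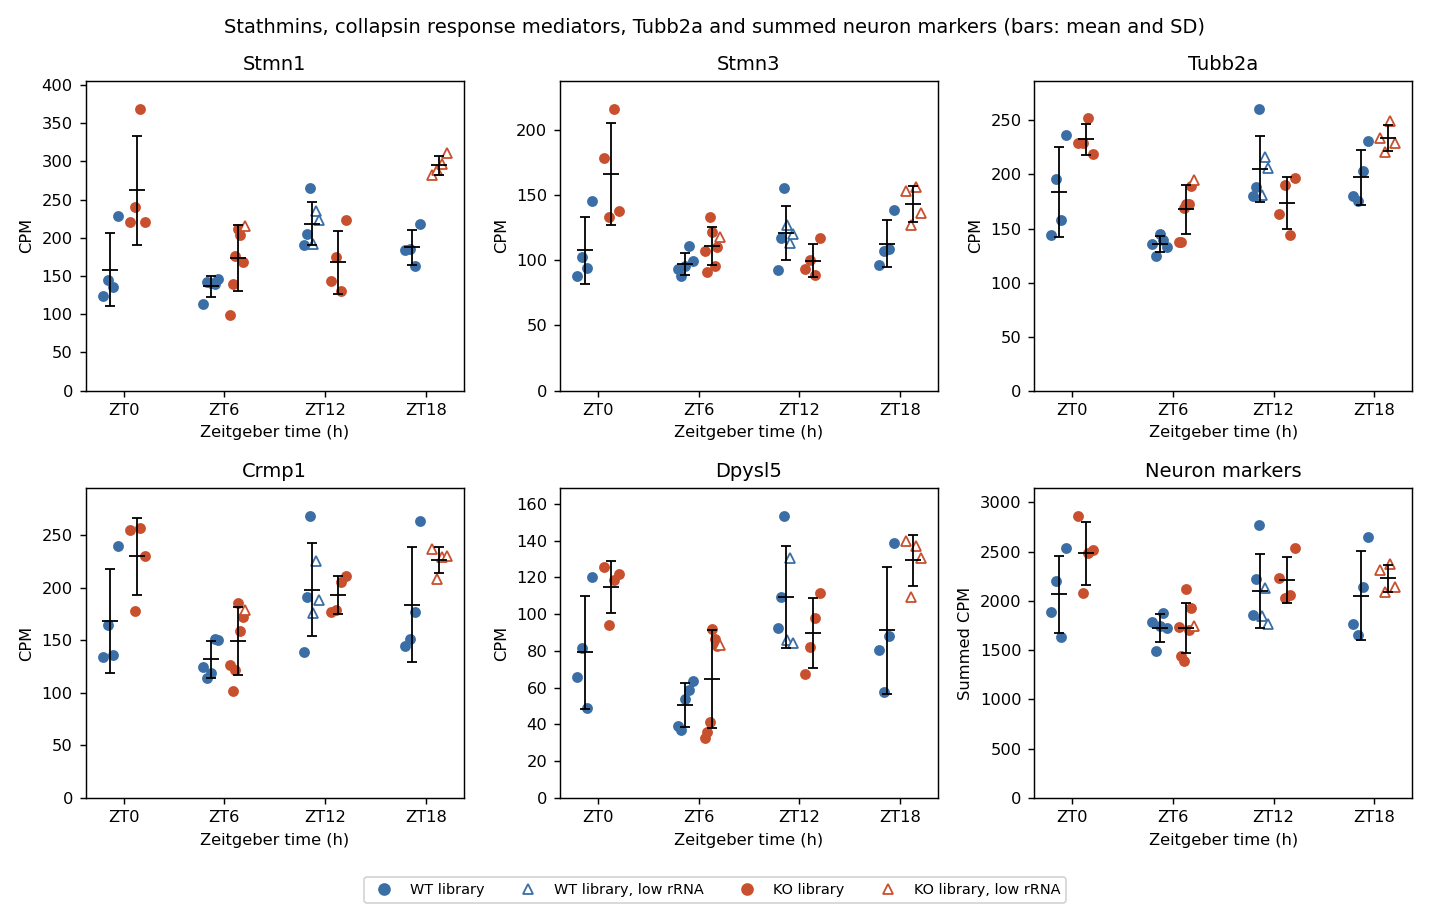
CPM of Stmn1, Stmn3, Tubb2a, Crmp1 and Dpysl5 and the summed CPM of 24 neuron markers in each library by zeitgeber time, with WT in blue, KO in red, open triangles for low-rRNA libraries, and bars for the mean and SD of each group. The ZT6 libraries are low in Tubb2a, Crmp1 and Dpysl5 as well as in the summed neuron markers, whose largest parts are the microtubule genes Map2 and Dcx.

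Of the CRMPs, which transmit semaphorin signals to microtubules, Dpysl5 and Crmp1 rose from ZT6 to ZT18 in KO. Dpysl5 (ENSMUSG00000029168, chromosome 5, 30711564 to 30799375, + strand), found in immature neural cells, rose by 1.00 (1.99-fold, SE 0.246, adjusted p = 0.0133), from between 32.4 and 91.7 (median 82.6) CPM to 139.7, 109, 137 and 130.5 CPM. At ZT6 the KO libraries formed separate levels, with replicates 1 to 3 at 32.4, 35.7 and 41.1 CPM and replicates 4 to 7 at 91.7, 86.5, 82.6 and 82.9 CPM. At ZT0 it was 126, 94.2, 118 and 122 CPM in KO, and at ZT12 67.1, 82.2, 97.7 and 111 CPM. In WT it was 65.6, 81.5, 49.0 and 120.4 CPM at ZT0, 39.2, 36.9, 53.7, 58.9 and 63.5 CPM at ZT6, between 84.5 and 153 (median 101) CPM at ZT12 and 80.4, 57.3, 87.9 and 139 CPM at ZT18. Its ZT6 libraries in WT lay below every library at ZT12. Dpysl5 varied with time in both genotypes (adjusted p = 0.0251 in WT and 0.0125 in KO). The rise in KO was lost without KO ZT18 replicate 1 (adjusted p = 0.0554), and the WT call without WT ZT6 replicate 1, 2 or 3 or WT ZT12 replicate 3 or 5 (adjusted p up to 0.108).

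Crmp1 (ENSMUSG00000029121, chromosome 5, 37241940 to 37292133, + strand) rose by 0.60 in KO (1.51-fold, SE 0.166, adjusted p = 0.0288), from between 102 and 186 (median 159) CPM at ZT6 to 237, 208, 229 and 230.0 CPM at ZT18, without overlap. In KO at ZT0 it stood at 255, 178, 257 and 230.4 CPM and at ZT12 177, 179, 206 and 212 CPM. In WT it was 134, 164, 136 and 239.5 CPM at ZT0, 125, 114, 119, 151 and 151 CPM at ZT6, between 139 and 268 (median 189.8) CPM at ZT12 and 145, 152, 177 and 263 CPM at ZT18. Within each WT group replicate 4 at ZT0, replicate 3 at ZT12 and replicate 4 at ZT18 stood highest. The rise in KO was lost without KO ZT6 replicate 1 or 2 or KO ZT18 replicate 1, 3 or 4 (adjusted p up to 0.094). With the low-rRNA term, the adjusted p of the ZT6 to ZT18 change was 0.363 for Crmp1 and 0.16 for Dpysl5, with log2 changes of 0.51 and 0.98.

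Dpysl2 (ENSMUSG00000022048, chromosome 14, 66802864 to 66868688, - strand), the founding CRMP, was higher in KO at ZT18 (0.57, SE 0.149, adjusted p = 0.035), at 93.9, 95.2, 84.9 and 101 CPM in WT and 139.7, 142, 139.9 and 136 CPM in KO. The ranges did not overlap there. Dpysl2 at ZT0 was 89.0, 101, 90.1 and 111 CPM in WT and 105, 99.5, 118 and 104 CPM in KO, at ZT6 83.7, 87.9, 79.9, 86.3 and 153 CPM in WT and between 92.1 and 148 (median 116) CPM in KO, and at ZT12 between 87.2 and 122 (median 111) CPM in WT and 81.9, 93.8, 84.1 and 104 CPM in KO. The groups overlapped at these times. The ZT18 call was lost without any of the 8 ZT18 libraries (adjusted p up to 0.126) and with the low-rRNA term (0.44, adjusted p = 0.735), and the interaction call (adjusted p = 0.0393) in 15 leave-one-out fits (adjusted p up to 0.11). Dpysl3, the most abundant CRMP per length, passed in none of the comparisons.

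In KO, 8 members in all rose from ZT6 to ZT18 (26 of 34 positive, median 0.25), where 5.03% of all genes were called (2.81% higher and 2.22% lower), and 0 fell. In the same contrast all 9 red blood cell markers were positive and called (median 1.48), and 11 of 12 choroid plexus and ependymal markers were positive (median 1.30, 2 called). So were 23 of 24 neuron markers (median 0.81, 12 called), 14 of 15 oligodendrocyte markers (median 0.52, 5 called), 18 of 18 astrocyte markers (median 0.84, 13 called) and 15 of 16 endothelial and mural markers (median 1.32, 9 called). Their summed levels at ZT6 and ZT18 ranged from 1394 to 2116 and 2085 to 2372 CPM for neurons, from 562 to 804 and 839 to 1058 for oligodendrocytes, from 1970 to 2901 and 3587 to 4303 for astrocytes, and from 1208 to 2880 and 4805 to 7982 for red blood cells. In WT, 1 member rose and 2 fell (22 of 34 positive, median 0.05), where 4.6% of all genes were called (1.46% higher and 3.14% lower). In the same contrast all 18 astrocyte markers (median 0.87, 13 called), all 9 red blood cell markers (median 0.84, 2 called) and all 24 neuron markers (median 0.43, 3 called) were positive. So were 11 of 12 choroid plexus and ependymal markers (median 0.71, 1 called) and 14 of 16 endothelial and mural markers (median 0.45, 1 called). With the low-rRNA split as a term, or without the single-sex libraries, 0 members were called for KO, where 1.36% and 1.37% of all genes were; 5 remained without KO ZT6 replicate 1 or 2 or KO ZT18 replicate 3, and 3 without KO ZT18 replicate 1. The part of the markers' cells was not tested.

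From ZT0 to ZT12, lights on to lights off, 3 members fell in KO (28 of 34 negative, median -0.24), where 3.27% of all genes were called, 0.82% higher and 2.45% lower. In WT 27 of 34 were positive (median 0.13), 0 were called where 0.00877% of all genes were (0.00877% higher and 0% lower), 6 had an unadjusted p below 0.05 (3305 of all genes), and DESeq2 called 0 (1.19% of all genes). The KO count was 0 without the single-sex libraries (0.148% of all genes), 0 without KO ZT0 replicate 3 or KO ZT12 replicate 1 or 3, 5 without WT ZT0 replicate 4 or WT ZT12 replicate 3, and 7 without KO ZT12 replicate 4. The WT count was 4, all higher, without WT ZT0 replicate 4. Within KO, 21 of 34 members varied over the 4 times, where 21.9% of all genes were called, and within WT 4 did, where 4.91% were. Group means in WT were highest at ZT12 for 24 members and lowest at ZT6 for 20. In KO 17 members were highest at ZT18 and 16 lowest at ZT12. The median ratio of highest to lowest group mean over members was 1.19 in WT and 1.39 in KO. Low-rRNA libraries made up 3 of 6 at ZT12 in WT and 4 of 4 at ZT18 in KO. Peak times were not counted over all genes, and a difference in peak time between genotypes was not tested. The WT count for time was 8 without WT ZT0 replicate 4 and 2 without WT ZT6 replicate 1, 2 or 3 or WT ZT12 replicate 3 or 5. Of the KO time calls, 10 remained without the low-rRNA libraries (8.93% of all genes), when ZT18 is absent and the test covers ZT0 to ZT12.

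Of the 7 plus-end proteins 2 were called for the interaction. Clasp2 (ENSMUSG00000033392, chromosome 9, 113741473 to 113919682, + strand), which stabilises microtubules at the cortex and Golgi, had the opposite signs to Mark4 and Map7d1, with its highest mean in KO at ZT12 and its lowest at ZT18. At ZT12 it lay between 279.9 and 328 (median 315) CPM in WT and at 410.2, 333, 357 and 345 CPM in KO, and at ZT18 at 307, 316, 335 and 337 CPM in WT and 289.7, 267, 284 and 259 CPM in KO. KO lay above WT at ZT12 and below it at ZT18 without overlap, with log2 fold changes of 0.22 (SE 0.076, adjusted p = 0.084) and -0.24 (SE 0.0836, adjusted p = 0.115), neither of which passed. Clasp2 stood at ZT0 at 348, 369, 309 and 318 CPM in WT and 348, 308, 308 and 331 CPM in KO, and at ZT6 343, 315, 337, 321 and 344 CPM in WT and between 259 and 349 (median 302) CPM in KO. Its interaction call (adjusted p = 0.0205) was lost without KO ZT12 replicate 1 (adjusted p = 0.0836) and with the low-rRNA term (0.447), whereas its time call in KO (adjusted p = 0.00376) held in all 38 leave-one-out fits. Clip2 passed for the interaction (adjusted p = 0.0318) and for time in KO (adjusted p = 0.0326), calls lost in 13 and 6 leave-one-out fits (adjusted p up to 0.118 and 0.119). The EB proteins Mapre1, Mapre2 and Mapre3, Clip1 and Clasp1 passed in none of the 12 comparisons.

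Other microtubule genes were counted from lists of related genes. Of 30 mitotic microtubule genes, which build and move the spindle, 29 were negative from ZT6 to ZT18 in WT (median -0.30) and 11 fell, among them Kif23 (-0.59, adjusted p = 0.000536), Spag5 (-0.42, adjusted p = 0.00465), Cenpe (-0.42, adjusted p = 0.00411) and Kif15 (-0.39, adjusted p = 0.0154). Of all genes, 3.14% were called lower in that contrast and 1.46% higher. In KO 27 of the 30 mitotic genes were negative (median -0.17) and 5 fell, Kif23 (-0.36), Spag5 (-0.33) and Kif15 (-0.32) among them. There 2.22% of all genes were called lower and 2.81% higher. Of 25 other tubulins and family members measured, 3 were called from ZT6 to ZT18 in WT, where 4.6% of all genes were. Of the 3, 2 were higher and 1 lower, the last being Tuba4a, an alpha tubulin encoded without the final tyrosine (-1.61, SE 0.31, adjusted p = 0.000678). Map1lc3a, better known as the autophagy protein LC3A, was lower in KO at ZT12 (-0.93, adjusted p = 0.0062) and higher at ZT18 (0.78, adjusted p = 0.0445). Of the 25, 2 were called at ZT12 and 1 at ZT18, where 5% and 2.14% of all genes were. For time in KO 12 of the 25 were called, where 21.9% of all genes were, Map9 and Dclk1 among them (adjusted p = 0.00537 and 0.00742).

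Of 22 tubulin-modifying enzymes measured, 2 fell in KO at ZT12 and 0 rose, where 3.69% of all genes were called lower and 1.31% higher. The 2 enzymes were Sirt2, a tubulin deacetylase of the oligodendrocyte lineage (-0.43, adjusted p = 0.00635), and Tpgs1, a subunit of a polyglutamylase (-0.52, adjusted p = 0.0465). From ZT0 to ZT12 in KO, Sirt2 (-0.39), Tpgs1 (-0.66) and Svbp, the partner of the vasohibin detyrosinases (-0.62), fell, where 2.45% of all genes were called lower. Agbl3, a tubulin deglutamylase, rose by 0.50 from ZT6 to ZT18 in WT (adjusted p = 0.0095), the 1 enzyme called there, where 4.6% of all genes were. Of 20 folding cofactors and chaperonin genes 2 fell from ZT0 to ZT12 in KO, Tbca (-0.80, adjusted p = 0.00839) and Pfdn1 (-0.66, adjusted p = 0.0151), and 1, Pfdn2, was lower in KO at ZT12 (-0.72, adjusted p = 0.044). Of all genes, 2.45% and 3.69% were called lower in these 2 comparisons. Tbcc rose by 0.65 from ZT6 to ZT18 in KO (adjusted p = 0.0471), the 1 gene of the 20 called there, where 5.03% of all genes were.

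Of 32 kinesin and dynein motor genes 3 fell and 0 rose in KO at ZT12, where 3.69% of all genes were called lower and 1.31% higher. From ZT6 to ZT18 in KO 5 rose and 0 fell, where 2.81% of all genes were called higher and 2.22% lower. Dynll2, a dynein light chain, rose by 0.51 in that contrast (adjusted p = 0.00297) and was higher in KO at ZT18 (0.44, adjusted p = 0.0456), and Kif21a, a kinesin that limits plus-end growth, rose by 0.75 in KO (adjusted p = 0.025) and by 0.96 in WT (adjusted p = 0.00511). At ZT18 Dynll2 was the 1 motor gene called between genotypes, where 2.14% of all genes were. Ndel1, a dynein regulator, fell by 0.70 from ZT6 to ZT18 in WT (adjusted p = 0.000235). In that contrast 2 of the 32 were called, 1 higher and 1 lower, where 4.6% of all genes were. For time in KO 17 of the 32 were called, where 21.9% of all genes were, Bicd2, a dynein adaptor, among them (adjusted p = 0.00148). Of 30 nucleation, minus-end, severing and plus-end partners, 1 was called in KO at ZT12, where 5% of all genes were, Mzt2 of the gamma-tubulin ring (-0.43, adjusted p = 0.0481). Tubgcp5 of the same complex was lower in KO at ZT0 (-0.73, adjusted p = 0.0464), and Mtus2 rose by 0.80 from ZT6 to ZT18 in KO (adjusted p = 0.00631). Each was the 1 gene of the 30 called in its comparison, where 0.285% and 5.03% of all genes were. For time in KO 11 of the 30 were called, where 21.9% of all genes were, Tacc1 among them (adjusted p = 0.00232).

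As BMAL1 binds E-boxes (CACGTG) with its partner CLOCK, the promoters of members were searched for that motif on both strands, in windows of 300 bases from 250 before to 50 after each RefSeq gene start on GRCm38.p6. Of the 34 members 23 matched the table, with 32 promoters, and 2 held the motif, against 7.15% of all 32851 promoters of that length. They were those of Mapre1 (chr2:153741147-153741182, + strand) and Tubb5 (chr17:35838356-35838391, - strand), shown here with the E-box in capitals, which begins at positions -125 and -75 relative to the start.
Mapre1: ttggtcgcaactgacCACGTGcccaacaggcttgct
Tubb5: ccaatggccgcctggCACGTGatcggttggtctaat

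With all libraries, edgeR with TMM scaling called neither gene in any of the 12 comparisons. The variant CACGTT was found in 2 member promoters, those of Clasp2 and Clip1 (4.69% of all promoters held it), and TTATGTAA, the D-box of clock-controlled factors, in 0 of 32 (0.938% of all). These are matches of letters in short windows only.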

How the data were processed

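RNA-seq counts per gene of 38 libraries were analysed. The authors deposited raw counts, made, per the submitters' processing notes, on GRCm38/mm10 by trimming with fastp, alignment with HISAT2 2.0.5 and counting with featureCounts 1.5.0-p3. The annotation release was not given in the sources used here, nor were the strand setting and the treatment of reads shared by several genes. From these, edgeR 4.0.16 in R 4.3.3 was used with filterByExpr, TMM scaling and a quasi-likelihood fit of 8 groups, 12 comparisons, and Benjamini-Hochberg adjustment over the 22798 genes that passed the filter, which held 99.9% of the counts. SE was taken as the log2 fold change over the square root of F. CPM used TMM-scaled totals, and levels per length divided them by gene length. Depth was 19.4 to 39.01 M counts, and the deepest libraries were mostly low in rRNA (26.5 to 39.01 M against 19.4 to 38.3). No replicate pair differed by less than sampling noise (smallest chi-square per degree of freedom 12.2). Library values were given for the 14 members with the smallest adjusted p in any comparison, and up to 4 genes per related list were named by the same rule; Dpysl2 was added after its values were seen. The members and all lists were chosen with earlier results of these data known. Alternatives were RLE scaling, library size alone, no filter, DESeq2 1.42.0, limma-voom (limma 3.58.1), the low-rRNA split removed (share below 0.3%) or as a term, removal of 13 single-sex libraries, a replicate block, and removal of each library in turn. The fit was tested on simulated data.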

Additional observations from a re-analysis of the deposited data

Results flagged for a closer look

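The genotype difference depended on time of day, by the interaction test of edgeR, for 11 members, where 9.19% of all genes were called, with adjusted p of 0.00015 for Mark4, 0.000198 for Map7d1, 0.00167 for Mark2, 0.00568 for Tubb6, 0.0109 for Stmn1, 0.0158 for Tubb4a, 0.0187 for Stmn3, 0.0205 for Clasp2, 0.0318 for Clip2, 0.0393 for Dpysl2 and 0.0456 for Tubb2a. The calls for Tubb6, Mark2, Mark4 and Map7d1 held in all 38 fits that left out 1 library. Removal of the low-rRNA libraries left 0 of the 11 calls (0 of all genes), and the split as a term 1, Mark4 (0.189% of all genes).

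Single libraries stood far from the rest of their group, by Dixon's test, in 7 of 112 groups of the 14 members (6.25%), where chance gives about 1 in 20. Mark4 was high in WT ZT0 replicate 4 (79.0 CPM) and KO ZT0 replicate 3 (87.5 CPM) and low in WT ZT18 replicate 2 (66.5 CPM). Stmn1 was low in WT ZT6 replicate 1 (113 CPM) and high in KO ZT0 replicate 3 (368 CPM). Map7d1 was high in WT ZT6 replicate 5 (208 CPM), and Mapt in WT ZT12 replicate 3 (279.8 CPM).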

How the results depend on the processing

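No called member changed sign under an alternative; members that were not called did in places. Values below are numbers of the 34 members called, each followed by the percentage of all genes called in the same fit. At ZT0, where none was called (0.285%), RLE scaling gave 1, which was lower (0.404%), and no filter gave 2, all higher (0.226%). DESeq2 (4.47%) and the replicate block (2.05%) each gave 5, of which 1 was lower. The low-rRNA term gave 1, which was higher (0.504%). Over all times DESeq2 gave 1 (1.07%). At ZT12, 4 with all lower (5%), removal of the low-rRNA libraries left 0 (0.00435%) and the split as a term 2 (0.342%), while DESeq2 called 6, of which 2 were higher (7.22%), and library size alone 5, of which 1 was higher (4.4%). At ZT18, 5 (2.14%), RLE gave 3 (2.07%), library size alone 1 (2%), DESeq2 8, of which 1 was lower (5.31%), the low-rRNA term 0 (0.00877%), removal of the single-sex libraries 0 (0.00422%) and the block 9 (4.37%). The interaction, 11 (9.19%), gave 0 (0%) without the low-rRNA libraries, 1 (0.189%) with the term and 5 (3.05%) without the single-sex libraries. For time in WT, 4 (4.91%), DESeq2 gave 7 (7.8%) and removal of the single-sex libraries 2 (2.05%). For time in KO, 21 (21.9%), removal of the low-rRNA libraries gave 10 (8.93%) and of the single-sex libraries 12 (12.8%). For ZT12 against ZT0, removal of the single-sex libraries gave 1 (0.456%) in WT, from 0, and 0 (0.148%) in KO, from 3 (3.27%), where DESeq2, limma-voom and the block each gave 5 (6%, 3.44% and 4.01%). For ZT18 against ZT6 in WT, 3 (4.6%), no filter gave 5 (2.36%), removal of the single-sex libraries 1 (1.34%) and the block 6 (5.75%). In KO, 8 (5.03%), limma-voom gave 13 (6.17%), the low-rRNA term 0 (1.36%), removal of the single-sex libraries 0 (1.37%) and the block 16 (11.9%). The cause of these changes was not tested.

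Leaving out 1 library at a time gave 0 to 5 calls over all times, 0 to 15 at ZT0, 0 to 0 at ZT6, 2 to 4 at ZT12, 0 to 7 at ZT18, 4 to 16 for the interaction, 2 to 8 for time in WT, 17 to 23 for time in KO, 0 to 4 for ZT12 against ZT0 in WT and 0 to 7 in KO, and 2 to 4 for ZT18 against ZT6 in WT and 3 to 12 in KO. The largest counts at ZT0, over all times, at ZT18, for the interaction and for time in WT came without WT ZT0 replicate 4.

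The replicate numbers were not taken to pair the samples, as the labels do not say what they pair. Not every same-numbered pair correlated above 0.1, but so strict a rule cannot exclude a partial pairing. Counts with the replicate block are given above. Deviations of 116 same-numbered pairs had a median correlation of 0.0552 (-0.423 to 0.534) with 48 over 0.1, against a median of -0.00786 with 140 over 0.1 for 511 pairs of other numbers, and 10 of 38 libraries correlated best with their own number, as a hint from the data only. Depth limits Tppp3 most, with 26 to 258 counts per library.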
